A study of Homo sapiens with 16 samples.

Results

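The genes described here were 8 members of the RGS (regulator of G protein signalling) family, RGS1, RGS2, RGS3, RGS6, RGS10, RGS14, RGS16 and RGS19, out of 57820 genes counted. They were chosen by symbol, with RGS6 as the leading gene because its level in HSB-2 cells differed between the scrambled control and the other groups. Values of the HSB-2 scrambled libraries against the other HSB-2 groups are therefore given as a description with no test. The count table held 21 genes with an RGS symbol and a number, 18 of them with at least 1 count and 14 with enough counts to be tested in the fit of all libraries. All 8 members were among the latter.

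The study reduced USP7, a deubiquitinase, in Jurkat and HSB-2, established human cell lines of T-lineage acute lymphoblastic leukemia (T-ALL) that the labels give as TAL1+. Total RNA depleted of ribosomal RNA was sequenced from 4 groups of each line, 2 libraries per group: wild-type, scrambled control, USP7 shRNA-4057 and USP7 shRNA-4058. The short hairpin RNAs (shRNAs) were delivered by lentivirus, and transduced cells were sorted for GFP or selected with puromycin, so that comparisons with wild-type cells cannot tell the hairpin apart from transduction and selection. The scrambled control is named an siRNA in the sample labels and an shRNA in the design. All groups carry the TAL1+ label, and no label says that the replicates came from separate cultures, so p-values measure the spread between libraries, which may be technical. Where both hairpins are joined, this spread includes the difference between the hairpins.

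RGS proteins are GTPase-activating proteins for G protein alpha subunits. A G protein-coupled receptor loads the alpha subunit with GTP, which frees it from the beta-gamma pair, and an RGS protein speeds GTP hydrolysis and so ends the signal. In lymphocytes they are known for limiting chemokine receptor signals. RGS1, RGS2, RGS3 and RGS16 belong to the R4 subfamily of mostly small proteins. RGS6 belongs to the R7 subfamily, whose members are stabilised by the beta subunit GNB5. RGS10 and RGS14 belong to the R12 subfamily, RGS14 also being a scaffold that binds inactive alpha subunits, and RGS19 belongs to the RZ subfamily.

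Levels are CPM, counts per 1000000 of the library total scaled by the TMM method. Total counts ran from 76602847 to 235467749 per library, TMM factors from 0.882 to 1.15, and a count of 0 allowed up to 3 counts, or 0.0131 to 0.0444 CPM. Such a floor covers counting error only. USP7 was lower with either hairpin than in wild-type cells. In Jurkat it fell from 391 ± 6.89 CPM (SD, n = 2) to 143 ± 3.79 with shRNA-4057 and 243 ± 1.46 with shRNA-4058. In HSB-2 it fell from 240 ± 4.48 to 146 ± 3.68 and 159 ± 3.95 CPM. The scrambled libraries had 385 ± 2.21 CPM in Jurkat and 224 ± 5.02 CPM in HSB-2. T lineage markers were detected in both lines, with 9 of 9 genes above 0 and summed levels of 2337 to 2970 CPM in Jurkat and 2835 to 3983 CPM in HSB-2. Myeloid markers summed to at most 0.932 CPM, with LYZ, CD14, CSF1R, ITGAM and MPO all under 1 CPM. Erythroid and megakaryocytic markers summed to at most 1.90 CPM with HBB and PF4 at 0, and B lineage markers to 22.0 to 64.8 CPM in Jurkat, where 4 of 5 were under 1 CPM, and to 1.17 to 4.61 CPM in HSB-2 with MS4A1 at 0. T lineage markers moved with the groups: 8 of 9 were lower in HSB-2 scrambled than in wild-type cells, beside 34.1% of all genes tested that passed the same threshold in either direction. With shRNA against wild-type cells 3 were higher and 1 lower in HSB-2 (25.1% of all genes) and 3 were lower in Jurkat (8.41%). Their part in the results was not tested.

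On GRCh37, the build of the counts, RGS1 lies at chr1:192544893-192549154, RGS2 at chr1:192778169-192781405 and RGS16 at chr1:182567758-182573524. RGS3 lies at chr9:116207011-116360023, RGS6 at chr14:72399146-73033238 and RGS10 at chr10:121259329-121302231. RGS14 lies at chr5:176784925-176799597 and RGS19 at chr20:62704534-62711341. RGS10, RGS16 and RGS19 are on the minus strand and the others on the plus strand. Counts are of reads in annotated exons of the whole gene, so transcripts of one gene are not told apart. The strand setting of the counting is not given in the sources used here, so reads of antisense genes cannot be told apart from those of the members they overlap. RGS1 and RGS2 lie within the antisense non-coding gene ENSG00000285280, RGS3 overlaps ENSG00000237073 (0 to 9 counts per library), and RGS6 overlaps ENSG00000258871 (3 to 195 counts), ENSG00000286333 and a Y_RNA gene.

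The promoters of 3 members are shown because RGS6 and RGS1 had the widest range of group levels in HSB-2, and RGS16 had the widest gap between the lines among members with counts in both (for RGS1, at 0 counts in Jurkat, the gap is known only as a lower bound). Each is the 250 bases before an annotated start, from RefSeq on GRCh38.p14, a later build than that of the counts, read 5′ to 3′ on the strand of the gene. Capitals mark E-boxes (CANNTG, which reads the same on both strands), the letters bound by basic helix-loop-helix factors such as TAL1 and its E-protein partners. The first of 3 listed starts of RGS6 gives chr14:71932972-71933221 (plus strand), the only start of RGS1 chr1:192575523-192575772 (plus strand), and the only start of RGS16 chr1:182604390-182604639 (minus strand).
RGS6: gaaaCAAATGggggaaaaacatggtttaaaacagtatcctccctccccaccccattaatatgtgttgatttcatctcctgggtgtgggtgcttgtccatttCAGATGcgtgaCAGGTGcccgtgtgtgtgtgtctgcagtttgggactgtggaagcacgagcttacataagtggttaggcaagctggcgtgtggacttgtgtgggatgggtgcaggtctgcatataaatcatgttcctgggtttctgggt
RGS1: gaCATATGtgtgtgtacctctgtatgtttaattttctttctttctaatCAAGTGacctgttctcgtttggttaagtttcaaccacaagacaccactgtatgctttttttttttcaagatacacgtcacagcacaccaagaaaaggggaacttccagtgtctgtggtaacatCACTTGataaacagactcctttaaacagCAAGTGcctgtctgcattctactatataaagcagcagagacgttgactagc
RGS16: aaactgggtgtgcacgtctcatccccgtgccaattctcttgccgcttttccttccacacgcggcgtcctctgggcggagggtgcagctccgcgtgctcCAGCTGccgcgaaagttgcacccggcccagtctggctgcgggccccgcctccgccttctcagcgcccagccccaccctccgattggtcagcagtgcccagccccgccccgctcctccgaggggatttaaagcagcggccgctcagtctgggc
The RGS6 window held 3 E-boxes, one of them CAGGTG. The other 2 starts of RGS6 held 0 and 2. The RGS1 window held 4 and the RGS16 window 1, which was CAGCTG. Of the 16 windows listed for the 8 members, 10 held CANNTG, beside 61.8% of 35116 promoter windows of the same length. The more particular letters CAGCTG were in 3 of the 16 windows (14% of all windows), and CAGGTG or its reverse complement CACCTG in 3 (17.5%). Which start these cells used was not measured, and a match of letters is not a binding site.

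In wild-type cells 7 of the 8 members were lower in Jurkat than in HSB-2, and RGS2 was not called (edgeR adjusted p = 0.385). Here and elsewhere, called means an adjusted p under 0.05 by the quasi-likelihood test of edgeR, with Benjamini-Hochberg adjustment over all genes tested. Between the wild-type lines 68.1% of all genes were called. RGS16, which acts on Gi and Gq signals in lymphocytes, had 0.154 and 0.111 CPM in the Jurkat wild-type libraries, from 18 and 10 counts, and 30.8 and 28.9 CPM in those of HSB-2. Its log2 fold change, Jurkat against HSB-2, was -7.78 (SE 0.147, adjusted p = 2.87e-23). RGS6 had 0.342 and 0.267 CPM in Jurkat and 14.8 and 14.5 CPM in HSB-2 (log2 -5.56, SE 0.198, adjusted p = 8.93e-18). Fewer cells that express a gene and less RNA per cell cannot be told apart in such libraries.

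RGS1, which limits chemokine responses, had 0 counts in all 8 Jurkat libraries and 1.20 and 1.04 CPM in HSB-2 wild-type cells. Set against 3 counts per library, its level in HSB-2 wild-type cells was at least 31.2-fold higher than in Jurkat wild-type cells. RGS10 had 35.1 ± 0.511 CPM in the Jurkat libraries and 90.3 ± 2.43 CPM in those of HSB-2 (log2 -1.36, SE 0.0448), and RGS14 39.9 ± 1.70 and 69.6 ± 1.30 CPM (log2 -0.80, SE 0.0528). RGS3 had 5.19 ± 0.244 and 11.03 ± 0.542 CPM (log2 -1.09, SE 0.0825). RGS19 was the closest of the called members, with 28.7 ± 1.97 and 33.3 ± 0.634 CPM (log2 -0.22, SE 0.0593, edgeR adjusted p = 0.00256). Its call was lost without the first wild-type library of Jurkat (log2 -0.15) or of HSB-2 (log2 -0.17). It was also lost with library totals alone (log2 -0.096, edgeR adjusted p = 0.139). RGS2, best known for acting on Gq, had 1.94 ± 0.450 CPM in Jurkat and 2.22 ± 0.133 CPM in HSB-2, with overlapping libraries.

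Per length of annotated exon, the level of RGS10 was the highest of the 8 members in wild-type cells of both lines, at 27.6 ± 0.401 CPM per kb in Jurkat and 70.8 ± 1.91 CPM per kb in HSB-2. In Jurkat, RGS19 followed with 14.2 ± 0.971 and RGS14 with 10.8 ± 0.459 CPM per kb. In HSB-2, RGS14 followed with 18.8 ± 0.350, RGS19 with 16.4 ± 0.313 and RGS16 with 12.4 ± 0.569 CPM per kb. RGS6 reached 1.64 ± 0.0249 CPM per kb in HSB-2, above RGS2 at 1.06 ± 0.0635, RGS3 at 0.839 ± 0.0412 and RGS1 at 0.275 ± 0.0278 CPM per kb. Lengths are those of all annotated exons of a gene, 13.152 kb for RGS3 and 1.274 kb for RGS10, so a gene with many annotated transcripts has a lower value per kb than its main transcript would give.

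**Figure D1:**
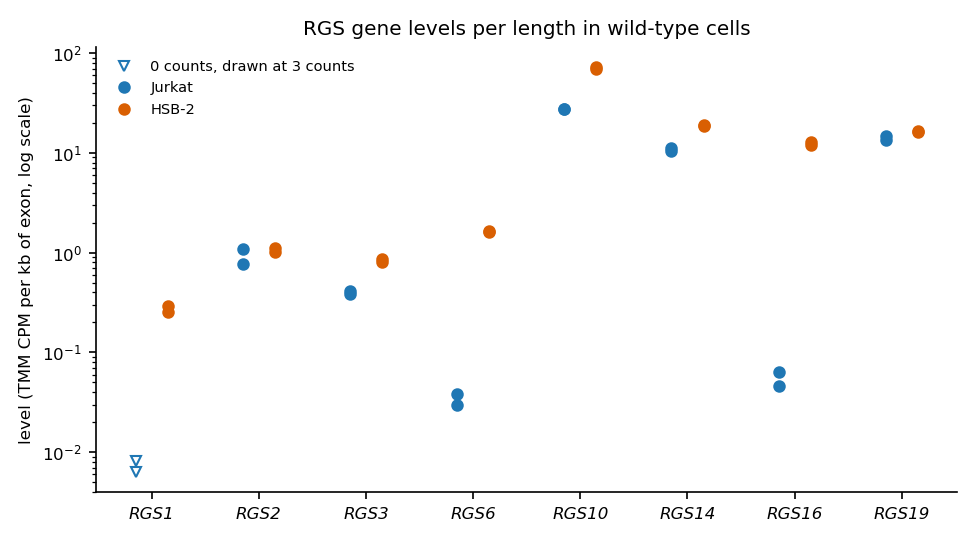
Levels of the 8 RGS genes in wild-type cells, as TMM CPM per kb of annotated exon on a log axis, 1 point per library (n = 2 per line). RGS10 is highest in both lines at 27.6 (Jurkat) and 70.8 (HSB-2) CPM per kb, RGS6 and RGS16 are under 0.1 in Jurkat, and RGS1, with 0 counts in Jurkat, is drawn there at the level of 3 counts.

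Across the 4 groups of HSB-2, RGS6 spanned the widest range of the 8 members. It had 14.8 and 14.5 CPM in wild-type cells, 0.557 and 0.603 CPM in scrambled cells, 13.1 and 13.5 CPM with shRNA-4057, and 27.8 and 26.3 CPM with shRNA-4058. The scrambled libraries were far under the other 6, with 104 and 106 counts where the others had 1124 to 5774. They lay within the range of the Jurkat libraries, 0.190 to 0.773 CPM. Since this pattern chose the gene, its fold changes are a description: the log2 fold change was -4.66 for scrambled against wild-type cells and 5.12 for the 4 shRNA libraries against scrambled cells.

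RGS1 was also lowest in scrambled HSB-2 cells. It had 1.20 and 1.04 CPM in wild-type cells, 0.177 and 0.194 CPM in scrambled cells, 1.93 and 2.67 CPM with shRNA-4057, and 3.49 and 2.25 CPM with shRNA-4058. The shRNA libraries were all above those of wild-type cells, while the hairpins overlapped each other. Where libraries separate, here and below, the share of all genes that do so is not given, so nothing is read from it. RGS3 also had its lowest HSB-2 level in scrambled cells, 5.81 and 6.30 CPM, against 11.4 and 10.7 CPM in wild-type cells and 10.9 to 14.5 CPM in the shRNA libraries. RGS2 (1.53 and 1.41 CPM), RGS14 (58.8 and 60.8 CPM) and RGS19 (25.6 and 26.4 CPM) were likewise lowest in the scrambled libraries.

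RGS16 and RGS10 instead had their highest HSB-2 levels in scrambled cells, and their lowest in wild-type cells. RGS16 had 61.3 and 63.3 CPM in scrambled cells, 30.8 and 28.9 CPM in wild-type cells, 44.2 and 44.7 CPM with shRNA-4057, and 38.4 and 37.3 CPM with shRNA-4058. RGS10, a small member abundant in blood and immune cells, had 112 and 114 CPM in scrambled cells and 88.5 and 92.0 CPM in wild-type cells. Its levels were 99.1 and 97.9 CPM with shRNA-4057 and 104 and 110 CPM with shRNA-4058. For each of these genes the 4 groups of HSB-2 did not overlap.

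As log2 fold changes of scrambled against wild-type HSB-2 cells, the values ran from -4.66 for RGS6 and -2.61 for RGS1 through -0.87 for RGS3, -0.59 for RGS2, -0.36 for RGS19 and -0.22 for RGS14 to 0.33 for RGS10 and 1.06 for RGS16. Of all genes, 34.1% were called in this comparison and 38.1% between HSB-2 shRNA and scrambled cells. Members are not counted beside these shares, because RGS6 was chosen on these libraries. Against scrambled cells, the shRNA libraries had log2 fold changes of 5.12 for RGS6, 3.81 for RGS1, 1.10 for RGS3, 0.71 for RGS2, 0.61 for RGS19 and 0.50 for RGS14, and of -0.13 for RGS10 and -0.59 for RGS16. With scrambled and wild-type HSB-2 cells joined as the control, RGS10 turned to 0.02 and RGS6 stood at 1.42.

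**Figure D2:**
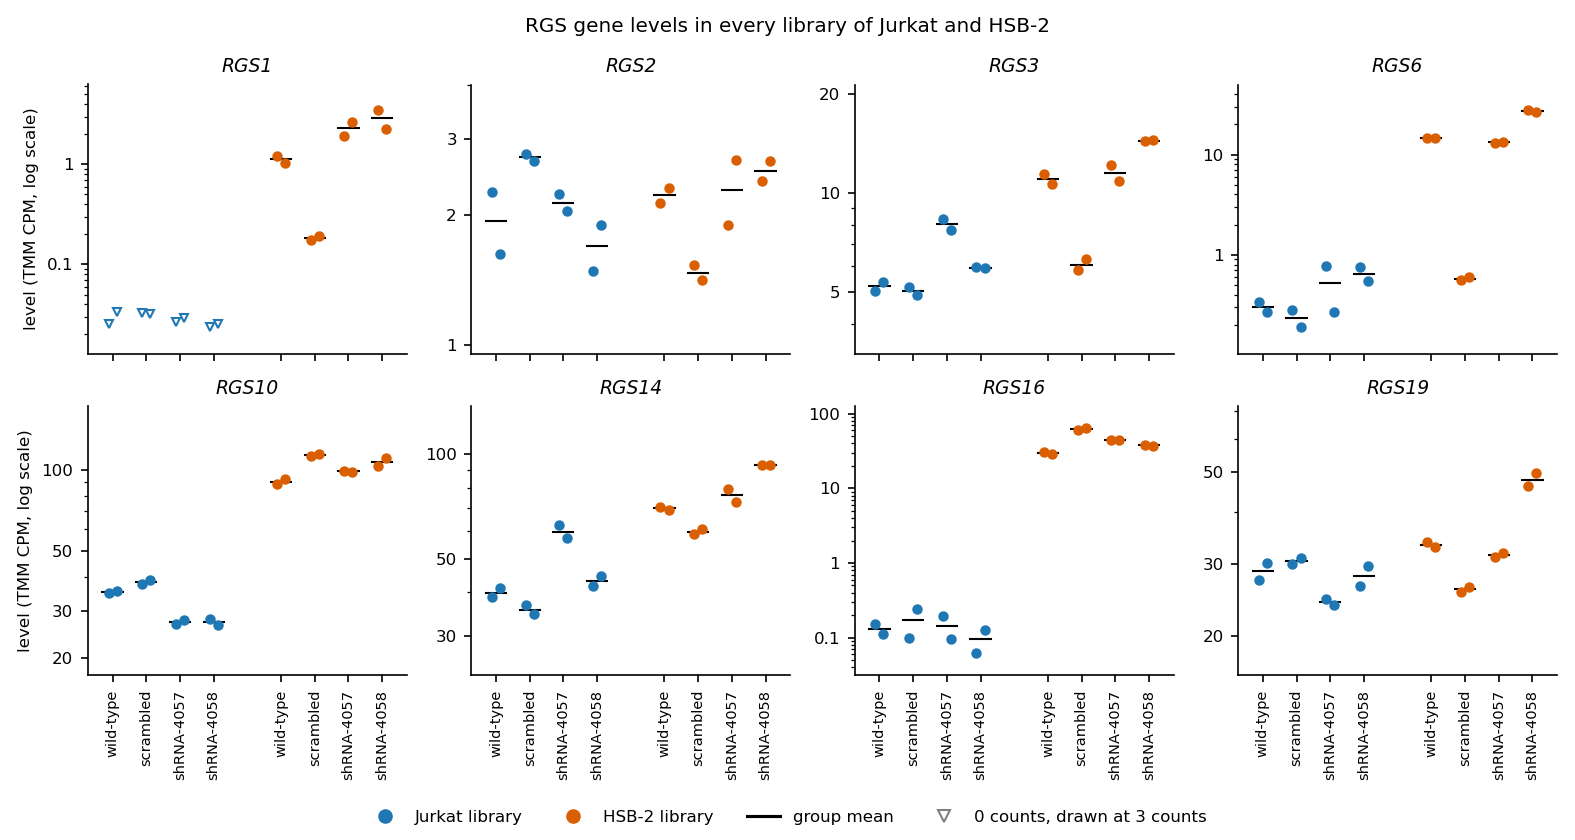
Level of each RGS gene (TMM CPM, log axis, each panel with its own range) in all 16 libraries, by line and treatment; points are libraries, bars are means of 2. In HSB-2 the scrambled libraries are lowest for RGS1, RGS2, RGS3, RGS6, RGS14 and RGS19 and highest for RGS10 and RGS16; triangles mark RGS1 at 0 counts in Jurkat, drawn at 3 counts.

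Without the scrambled libraries, HSB-2 cells with USP7 shRNA differed from wild-type HSB-2 cells in 2 of the 8 members, and 25.1% of all genes tested were called. Both called members, RGS1 and RGS16, were higher with shRNA than in wild-type cells, whereas RGS16 was lower than in scrambled cells (log2 -0.59, described above). RGS1 had a log2 fold change of 1.20 (SE 0.247, edgeR adjusted p = 0.00946) and RGS16 of 0.46 (SE 0.0904, adjusted p = 0.00788). For each, all 4 shRNA libraries were above both wild-type libraries, but the share of all genes that separate so is not given. The other 6 members had positive log2 fold changes that were not called: 0.46 for RGS6 (95% interval -0.25 to 1.17), 0.27 for RGS14, 0.25 for RGS19, 0.22 for RGS3, 0.18 for RGS10 and 0.12 for RGS2. RGS10 had an adjusted p of 0.054 by edgeR, and was called at 0.19 with RLE size factors (adjusted p = 0.0497). Leaving out one or the other wild-type library, after which the remaining one is assumed to vary like the others, left 0 members called by edgeR at adjusted p under 0.05 (2 and 3 at an unadjusted p under 0.05).

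The hairpins were not alike in HSB-2. With shRNA-4058, 7 of the 8 members were higher than in wild-type cells (44% of all genes called), all but RGS2. With shRNA-4057, 3 were higher, RGS1, RGS10 and RGS16 (31.7% of all genes called). Between the hairpins 6 members were called, beside 24.8% of all genes. RGS6 was lower with shRNA-4057 than with shRNA-4058 (log2 -1.02, SE 0.120, edgeR adjusted p = 7.68e-07), as were RGS19 (-0.60, SE 0.0593, adjusted p = 6.64e-08), RGS3 (-0.33), RGS14 (-0.29) and RGS10 (-0.12, adjusted p = 0.0489). RGS16 was higher (0.23, SE 0.0697, adjusted p = 0.0175). RGS1 and RGS2 were not called, with 95% intervals of -0.82 to 0.14 and -0.48 to 0.24. RGS6, RGS14 and RGS19 were called between the hairpins in each fit that left out 1 of the 4 libraries. RGS16 was called in none of them by edgeR (adjusted p 0.0563 to 0.246), RGS10 only without the first shRNA-4058 library (otherwise 0.0986 to 0.206), and RGS3 in all but the fit without the second shRNA-4057 library (0.0823). Against wild-type cells the 7 calls with shRNA-4058 each held in these fits, whereas with shRNA-4057 the RGS10 call was lost without the first wild-type library (adjusted p = 0.105) and without the first (0.14) or second (0.0818) shRNA-4057 library, and the RGS1 call without the second shRNA-4057 library (0.0634). USP7 itself differed by -0.12 on the log2 scale between the hairpins in HSB-2 (adjusted p = 0.0146 by edgeR, but 0.149 without the first shRNA-4057 and 0.152 without the first shRNA-4058 library).

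Against wild-type HSB-2 cells, RGS6 was called with one hairpin. With shRNA-4058 it was higher (log2 0.89, SE 0.117, edgeR adjusted p = 1.18e-06), and with shRNA-4057 its value was -0.14 (SE 0.120, adjusted p = 0.439). RGS19, which acts on Gi subunits and is tied to intracellular membranes, showed a like split: 46.1 and 49.5 CPM with shRNA-4058, 31.2 and 31.8 CPM with shRNA-4057, and 33.8 and 32.9 CPM in wild-type cells. Its log2 fold change against wild-type cells was 0.52 (SE 0.0583, adjusted p = 1.14e-07) with shRNA-4058 and -0.08 (SE 0.0593, adjusted p = 0.332) with shRNA-4057. These comparisons share the wild-type libraries, and the tests between the hairpins above do not use them.

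In Jurkat, RGS10 was lower with USP7 shRNA than in either control. It had 34.8 and 35.5 CPM in wild-type cells, 37.6 and 39.0 CPM in scrambled cells, 26.7 and 27.8 CPM with shRNA-4057, and 27.9 and 26.5 CPM with shRNA-4058. All 4 shRNA libraries were under all 4 control libraries, a separation not set beside that of all genes. The log2 fold change was -0.47 (SE 0.0662, edgeR adjusted p = 0.00253) against scrambled cells and -0.34 (SE 0.0653, adjusted p = 0.025) against wild-type cells, which share the shRNA libraries. Without the second scrambled library the first of these had an adjusted p of 0.0504. Against wild-type cells the call was lost in 5 of the 6 fits that left out 1 library: the adjusted p was 0.202 or 0.25 without a wild-type library, 0.05 or 0.0551 without an shRNA-4057 library and 0.0592 without the second shRNA-4058 library.

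RGS14 was higher in Jurkat shRNA libraries than in scrambled cells (log2 0.55, SE 0.164, edgeR adjusted p = 0.0409), and against wild-type cells its value of 0.39 was not called (adjusted p = 0.175). It had 38.7 and 41.1 CPM in wild-type cells, 36.6 and 34.6 CPM in scrambled cells, 62.3 and 57.2 CPM with shRNA-4057, and 41.7 and 44.4 CPM with shRNA-4058. The shRNA-4057 libraries stood above all others, and the shRNA-4058 libraries lay just above those of wild-type cells. Without one or the other scrambled library the adjusted p of RGS14 against scrambled cells was 0.163 or 0.219, and without the second shRNA-4057 library 0.0757. In all, 2 of 7 members with counts in Jurkat were called against scrambled cells (28% of all genes tested) and 1 of 7 against wild-type cells (8.41% of all genes tested). RGS1, with no counts, could not be tested in Jurkat.

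The other Jurkat members were not called with the hairpins joined, where the difference between hairpins is part of the error. USP7 itself was called there against wild-type cells (log2 -0.99, edgeR adjusted p = 0.0448). That call was lost without the first (0.0564) or second (0.0743) shRNA-4057 library. RGS6 had log2 fold changes of 1.34 (95% interval 0.27 to 2.41, edgeR adjusted p = 0.065) against scrambled and 0.97 (-0.03 to 1.97, adjusted p = 0.2) against wild-type cells, from 18 to 95 counts per library. Its shRNA-4057 libraries had 0.773 and 0.272 CPM, from 88 and 28 counts, so that group's mean rested on 1 library. RGS3 had 0.49 and 0.45, RGS2 -0.48 and 0.0035, RGS19 -0.19 and -0.11, and RGS16 -0.49 and -0.13, against scrambled and wild-type cells respectively. RGS16 had 8 to 23 counts in each Jurkat library, so only a large difference could have been detected at this depth.

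**Figure D3:**
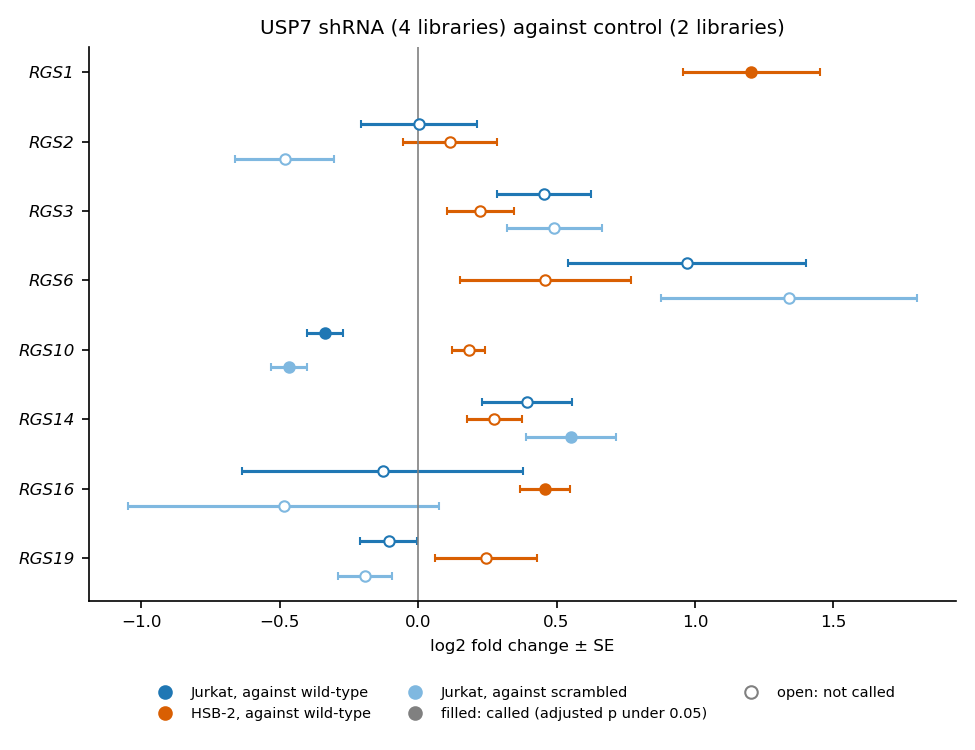
Log2 fold change (SE as bars) of the RGS genes between 4 USP7 shRNA libraries and 2 control libraries; filled points were called. RGS10 is at -0.34 and -0.47 in Jurkat and 0.18 in HSB-2, and RGS1, which had no counts in Jurkat, is shown for HSB-2 alone at 1.20.

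With each hairpin taken alone in one fit of the 16 libraries, whose error is the spread between replicates, 5 of 7 members were called in Jurkat against scrambled cells with shRNA-4057 (50% of all genes) and 5 of 7 with shRNA-4058 (46.5%). RGS3, RGS6 and RGS14 were higher and RGS10 was lower with each hairpin, RGS19 was lower with shRNA-4057, and RGS2 was lower with shRNA-4058. Without the first shRNA-4057 library the RGS6 value with that hairpin fell from 1.17 to 0.20 and was not called (edgeR adjusted p = 0.692), nor was it without the second scrambled library (0.0731). With shRNA-4058 the RGS3 call against scrambled cells was lost in each of the 4 fits that left out 1 library (adjusted p 0.0536 to 0.118), and the RGS2 call without the first shRNA-4058 library (0.0559). Against wild-type cells 4 of 7 members were called with shRNA-4057 (36.7% of all genes): RGS3 and RGS14 were higher, RGS10 and RGS19 lower. With shRNA-4058 2 of 7 were called (35.9%), RGS6 higher and RGS10 lower. This RGS6 call was lost without the second wild-type library (adjusted p = 0.0557) and without the first shRNA-4058 library (0.105), and the RGS19 call with shRNA-4057 without the second wild-type library (0.0642). RGS10 had nearly the same value with each hairpin, -0.37 (SE 0.0464) and -0.37 (SE 0.0461). With library totals alone, RGS19 with shRNA-4057 was not called against scrambled (-0.05, edgeR adjusted p = 0.474) or wild-type cells (-0.13, 0.087). Nor was RGS2 with shRNA-4058 against scrambled cells (-0.40, edgeR adjusted p = 0.067).

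Between the Jurkat hairpins 3 of 7 members were called, beside 33.9% of all genes. RGS3 (log2 0.44, SE 0.0827, edgeR adjusted p = 0.000181) and RGS14 (0.47, SE 0.0526, adjusted p = 1.42e-07) were higher with shRNA-4057 than with shRNA-4058, and RGS19 was lower (-0.21, SE 0.0603, adjusted p = 0.00938), though not without the second library of shRNA-4057 (0.0748) or of shRNA-4058 (0.198). USP7 was also lower with shRNA-4057 (log2 -0.77, SE 0.0347). RGS10 had a difference of 0.0020 (95% interval -0.0943 to 0.0983).

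**Figure D4:**
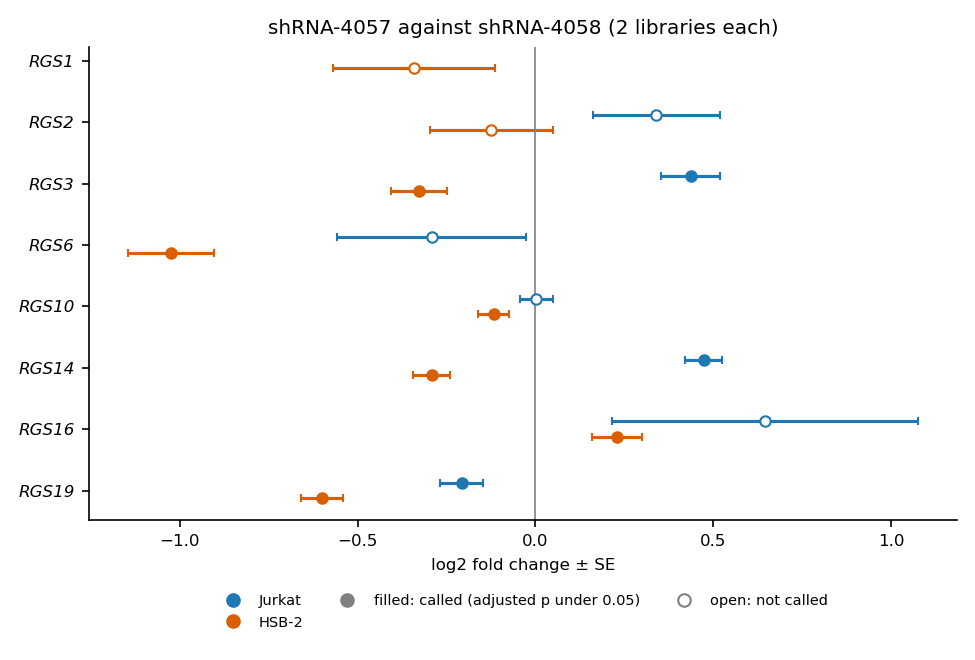
Log2 fold change (SE as bars) of shRNA-4057 against shRNA-4058 in each line, 2 libraries per hairpin; filled points were called. RGS3 and RGS14 lie to the right of 0 in Jurkat (0.44 and 0.47) and to the left in HSB-2 (-0.33 and -0.29), and RGS6 has the lowest value, -1.02 in HSB-2.

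Between the Jurkat controls 2 of 7 members were called. RGS10 was higher (log2 0.13, SE 0.0459, edgeR adjusted p = 0.0475) and RGS14 lower (-0.16, SE 0.0544, adjusted p = 0.029) in scrambled than in wild-type cells, beside 25.9% of all genes called. The RGS10 call was lost in each of the 4 fits that left out 1 library (edgeR adjusted p 0.0653 to 0.319), and the RGS14 call without the second wild-type (0.218) or the second scrambled library (0.221). Scaled by library totals alone, the RGS10 value turned to -0.03. That scaling moved the median log2 fold change of all genes as well, since TMM factors were 0.925 to 0.953 in Jurkat scrambled, 1.04 to 1.06 in wild-type and 1.13 to 1.15 in shRNA libraries. The median of all genes moved from -0.0042 to -0.16 in this comparison, from 0.02 to 0.27 for Jurkat shRNA against scrambled cells, from 0.02 to 0.11 against wild-type cells, from -0.02 to -0.16 for HSB-2 shRNA against scrambled cells, and from 0.0042 to 0.13 between the wild-type lines. Under it RGS10 was at -0.21 and RGS14 at 0.80 in Jurkat shRNA against scrambled cells, both still called, and the RGS10 call against wild-type cells was lost (-0.25, adjusted p = 0.0603).

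The effect of USP7 shRNA against wild-type cells differed between the lines for RGS10, the 1 member called of 7 (19.1% of all genes tested). HSB-2 minus Jurkat gave 0.56 (SE 0.0950, edgeR adjusted p = 0.00164), beside -0.34 and 0.18 in the fits of each line alone. The difference was called in each of the 12 fits that left out 1 library, between 0.53 and 0.59, and at 0.34 (adjusted p = 0.013) with library totals alone, where the median of all genes was -0.21. The differences for RGS16 (0.65), RGS19 (0.40), RGS2 (0.16), RGS14 (-0.07), RGS3 (-0.18) and RGS6 (-0.46) were not called, with 95% intervals as wide as -1.77 to 0.84 for RGS6. The opposite signs of RGS10 hold against wild-type cells only. Against scrambled cells it was lower with shRNA in both lines, at -0.47 in Jurkat and, as a description, -0.13 in HSB-2.

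Ordered over the 8 groups, RGS3 ran from 14.4 CPM with shRNA-4058 in HSB-2 to 5.04 CPM in scrambled Jurkat cells, and HSB-2 scrambled cells (6.05 CPM) fell among the Jurkat groups, next to Jurkat shRNA-4058 (5.93 CPM), which they overlapped. RGS10 and RGS16 had each of their HSB-2 groups above each Jurkat group, and among neighbours RGS10 overlapped between the Jurkat hairpins only. RGS16 ran from 62.3 CPM in HSB-2 scrambled to 29.8 CPM in HSB-2 wild-type cells without overlap, and then to 0.170 CPM and less in the 4 Jurkat groups, which overlapped one another in order. RGS14 ran from 93.0 CPM with shRNA-4058 in HSB-2 to 35.6 CPM in scrambled Jurkat cells, and only HSB-2 scrambled (59.8 CPM) and Jurkat shRNA-4057 (59.7 CPM) overlapped as neighbours. RGS19 had a narrow range, from 47.8 CPM with shRNA-4058 in HSB-2 to 24.3 CPM with shRNA-4057 in Jurkat, with the other groups between 26.0 and 33.3 CPM. RGS2 had no pair of neighbouring groups that separated, from 2.72 CPM in Jurkat scrambled to 1.47 CPM in HSB-2 scrambled cells.

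Over the 8 HSB-2 libraries, log2 CPM of RGS6 had Pearson correlations of 0.982 with RGS3, 0.957 with RGS1, 0.902 with RGS2, 0.842 with RGS14 and 0.805 with RGS19, and of -0.831 with RGS16 and -0.584 with RGS10. The 8 points share 4 groups, and the scrambled pair lies apart from the others. Over the 8 Jurkat libraries the highest value among members was 0.983, between RGS3 and RGS14, both of which were highest with shRNA-4057, and RGS19 had -0.852 with RGS3 and -0.839 with RGS14. RGS6 and RGS3 had 0.524 in Jurkat.

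The 5 genes of 23063 whose log2 CPM was most like that of RGS6 over the 8 HSB-2 libraries were ANXA1 (r = 0.998), CRACR2B (0.998), BCL9 (0.997), RGPD2 (0.997) and CD300A (0.997). ANXA1, a phospholipid-binding protein, had 20.1 ± 0.313 CPM in wild-type, 1.10 ± 0.104 in scrambled, 16.2 ± 0.834 in shRNA-4057 and 29.2 ± 2.16 CPM in shRNA-4058 cells. CD300A, an inhibitory receptor of leukocytes, had 57.8 ± 0.209, 14.2 ± 1.37, 61.3 ± 0.401 and 87.3 ± 1.82 CPM in the same order. BCL9, a cofactor of beta-catenin, had a narrow range from 31.4 ± 0.00123 to 44.4 ± 0.285 CPM. These are descriptions of 8 points, among which the scrambled pair lies apart. RGPD2 belongs to a family of near-identical copies, so its counts are uncertain. In Jurkat, where RGS6 also had the widest range of group levels among the members, the 5 most like were genes of low count (ENSG00000250654, ANKRD49P2, AC017028.7, ENSG00000226396 and TAS2R15P, r = 0.946 to 0.970).

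Other genes of the pathway were taken from lists chosen with earlier results of these data known, so the lists are not independent of the data. They are described by counts of genes called with USP7 shRNA against wild-type cells. Jurkat had 8.41% and HSB-2 25.1% of all genes tested called, the shares beside which the counts of each list stand. Among 16 other genes with an RGS domain, Jurkat had 8 and HSB-2 had 7 that were tested. Those called in Jurkat were 2, both lower: RGS9, an R7 relative of RGS6, fell by 0.86 on the log2 scale (edgeR adjusted p = 0.0265) and RGS17, of the RZ subfamily, fell by 0.83 (adjusted p = 0.0486). In HSB-2 1 was called, the scaffold AXIN1, at 0.19 (adjusted p = 0.0395). Median log2 fold changes were 0.03 and -0.04, beside 0.02 and -0.01 over all genes.

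Of the 4 genes for RGS partners, Jurkat had 3 and HSB-2 had 2 that were tested. GNB5, the beta subunit that pairs with RGS6, was higher in HSB-2 shRNA cells, with 68.2 ± 0.0334 and 76.0 ± 3.71 CPM under the hairpins and 60.3 ± 1.01 CPM in wild-type cells (log2 0.25, edgeR adjusted p = 0.026). RGS9BP, the anchor of RGS9, rose in HSB-2 from 3.56 ± 0.119 to 8.66 ± 0.694 and 11.2 ± 0.286 CPM (log2 1.48, adjusted p = 0.000558). In Jurkat 0 were called by edgeR, and also by DESeq2 and at an unadjusted p under 0.05. GNB5 had 41.2 ± 0.183 CPM there in wild-type cells and 36.6 ± 0.847 and 39.5 ± 0.622 CPM with the hairpins.

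Of 12 alpha subunit genes tested in each line, 1 was called in Jurkat and 3 in HSB-2, shares near those of all genes (8.41% and 25.1%). GNA15, a Gq-class subunit of blood cells, was lower in Jurkat (log2 -0.64, edgeR adjusted p = 0.00592) and higher in HSB-2 (0.21, adjusted p = 0.0259). GNAO1 rose in HSB-2 by 0.83 (adjusted p = 0.033). GNAI2, a Gi subunit and a substrate of most members described here, had 492 ± 6.20 CPM in HSB-2 wild-type cells and 547 ± 16.04 and 602 ± 29.1 CPM with the hairpins (log2 0.22, edgeR adjusted p = 0.0326), and was named after its values were seen, as the remaining one of the 3. Of the beta and gamma subunit genes, 1 of 12 tested was called in Jurkat (GNB4, -0.98, adjusted p = 0.00823) and 4 of 10 in HSB-2, all higher, from GNG2 (0.20, adjusted p = 0.0138) to GNG4 (0.74, adjusted p = 0.00103).

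Genes of the G protein cycle and of receptor desensitisation (exchange factors, GPSM proteins, receptor kinases and arrestins) gave 6 of 12 higher and 0 lower in HSB-2 (25.1% of all genes called), from RIC8A (log2 0.19, edgeR adjusted p = 0.0141) to ARRB2 (0.30, adjusted p = 0.00483). In Jurkat 0 of 12 were called by edgeR and by DESeq2, with 2 at an unadjusted p under 0.05. Of the lymphocyte G protein-coupled receptors, 11 of 20 tested were higher in HSB-2 and none lower, with the chemokine receptor CXCR4 at 0.15 (adjusted p = 0.0353), the lowest value of those called. In Jurkat 4 of 19 were called, 3 higher and 1 lower, with ADORA2A, an adenosine receptor, at 1.81 (adjusted p = 0.0335) and P2RY8 at -0.57 (adjusted p = 0.0419). The median log2 fold change of this list was 0.47 in HSB-2 and 1.03 in Jurkat, beside -0.01 and 0.02 over all genes. With single hairpins in the fit of all libraries, where 21 receptors were tested, the medians were lower in Jurkat. There they were 0.63 with shRNA-4057 and 0.02 with shRNA-4058, and in HSB-2 0.39 and 0.48. Of 16 effector genes, 4 were higher and 4 lower in HSB-2, with PDE4D, a cAMP phosphodiesterase, at 0.85 (adjusted p = 0.000174) and PIK3CG, a kinase driven by beta-gamma subunits, at -0.38 (adjusted p = 0.00362). In Jurkat 1 was called, ARHGEF12, itself a protein with an RGS-like domain (-0.34, adjusted p = 0.0341). Under the other settings no called gene of these lists changed sign. With library totals alone 8 of 20 receptors and 3 of 12 cycle genes were called in HSB-2, all higher, and 9 of 16 effectors, 4 higher and 5 lower. The list counts in HSB-2 rested on both wild-type libraries. Without the first or the second of them, edgeR called 3 and 4 receptors in place of 11, 1 and 0 cycle genes in place of 6 (6 and 5 at an unadjusted p under 0.05), and 2 and 1 effectors in place of 8, all of them higher. Without the same libraries 2 and 1 beta and gamma subunit genes were called in place of 4, 0 alpha subunit genes in place of 3 (2 each at an unadjusted p under 0.05), 1 partner gene in place of 2, and 0 other genes with an RGS domain in place of 1 (0 and 1 at an unadjusted p under 0.05). In Jurkat none of the lists had a gene called by edgeR without one or the other wild-type library, with 5 receptors in each fit at an unadjusted p under 0.05. Whether these counts differ between the lines was not tested.

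**Figure D5:**
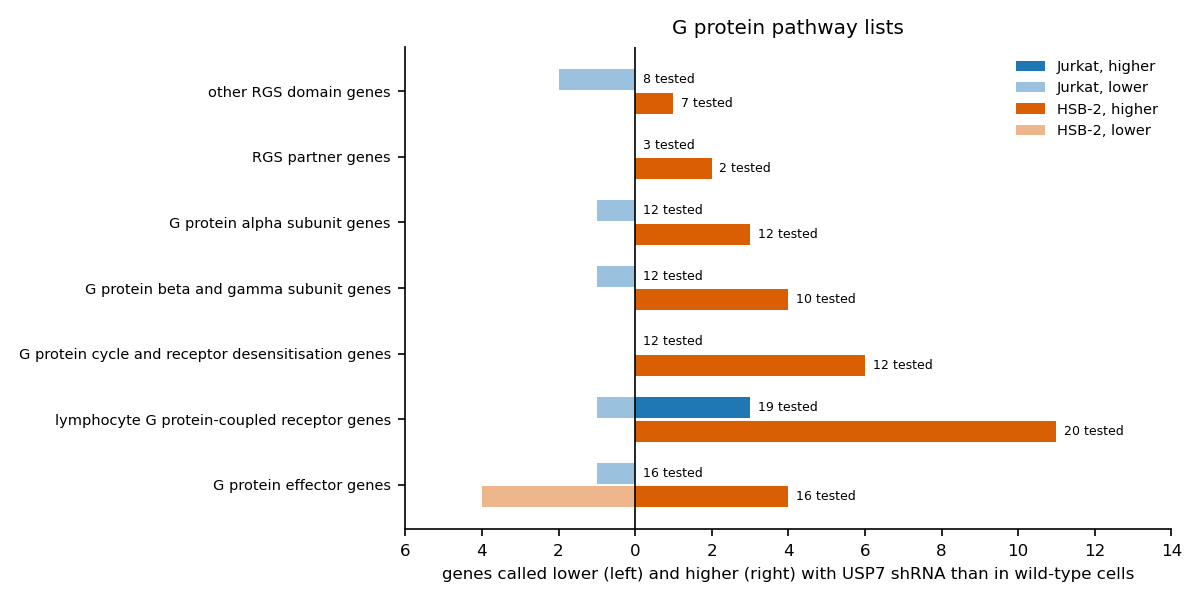
Number of genes of each list called lower (left of 0) or higher (right of 0) with USP7 shRNA than in wild-type cells of the same line; the number tested is written beside each bar. With TMM scaling, in HSB-2 11 of 20 receptors and 6 of 12 cycle genes are higher, and in Jurkat 3 of 19 receptors are higher and 1 is lower.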

How the data were processed

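RNA of 16 libraries was counted per gene. Per the labels and the methods of the study, the authors mapped reads to GRCh37-lite with a BWA-based pipeline and deposited raw HTSeq counts. The processing notes of the submitters also name STAR, and the annotation release and strand setting are not given in the sources used here. Totals were 76602847 to 235467749 counts per library. The deposited Ensembl identifiers were given symbols from a name table and GENCODE (96.1% matched).

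Counts were tested with the quasi-likelihood F-test of edgeR 4.0.16 in R 4.3.3 on genes passing filterByExpr, with TMM factors and Benjamini-Hochberg adjustment over all genes tested, and the standard error was the absolute log2 fold change divided by the square root of F. Both hairpins (4 libraries) were joined as 1 group and compared with 2 control libraries within each line. The difference between hairpins was thus part of the error, and the 2 libraries of each hairpin were treated as independent of each other. Contrasts of single groups came from a fit of all 16 libraries, and the difference between lines from 12 libraries. Intervals of 95% use the t distribution with the degrees of freedom of the test. The fits were tested on simulated counts. Replicates differed by more than sampling noise (chi-square per degree of freedom 5.12 to 18.4), so no pair differed by read sampling alone. Whether a pair came from the same culture or RNA is not shown by this. Alternatives were RLE factors, library totals, other count filters, DESeq2 1.42.0, the replicate number as a block, separate hairpins, joined controls and leaving out each library.

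The members and lists were chosen with earlier results of these data known. Named genes were all members, USP7, the 5 genes whose log2 CPM had the highest Pearson correlation with RGS6 in HSB-2 (in Jurkat, with the member of widest range), and per list the called genes with the highest and lowest log2 fold change with shRNA against wild-type cells of each line. Values of 2 list genes that this rule or the marker lists would name are not reported here.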

Additional observations from a re-analysis of the deposited data

Results flagged for a closer look

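The effect of USP7 shRNA against wild-type cells differed between the lines for RGS10, by 0.56 on the log2 scale (HSB-2 minus Jurkat, interaction test). Under the alternatives this value ran from 0.34 to 0.59 and its edgeR or DESeq2 adjusted p from 3.75e-07 to 0.0173. With each hairpin alone against wild-type cells, RGS10 also moved in opposite directions in all libraries of the lines. It was at -0.37 in Jurkat and 0.13 in HSB-2 with shRNA-4057, and at -0.37 and 0.24 with shRNA-4058. The difference was not tested for single hairpins. With library totals alone the HSB-2 value with shRNA-4057 was 0.056 and not called (edgeR adjusted p = 0.363). The sign in HSB-2 depended on the control. Against scrambled cells RGS10 was lower with shRNA in both lines, at -0.47 in Jurkat and, as a description, -0.13 in HSB-2.

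Further members had log2 fold changes of opposite sign in the lines, with libraries of the compared groups not overlapping in either line. These differences between lines were not tested. The share of all genes that separate in this way is not given here, so nothing is read from the separation. Between shRNA-4057 and shRNA-4058, RGS3 was at 0.44 in Jurkat and -0.33 in HSB-2, and RGS14 at 0.47 and -0.29. For scrambled against wild-type cells RGS2 was at 0.47 in Jurkat (not called, edgeR adjusted p = 0.0517) and -0.59 in HSB-2. For shRNA against scrambled cells RGS2 was at -0.48 and 0.71, and RGS19 at -0.19 and 0.61. These Jurkat values were not called (edgeR adjusted p = 0.0783 for RGS2 and 0.174 for RGS19), and with library totals alone RGS19 was at 0.0616 in Jurkat, the same sign as in HSB-2. The HSB-2 values that use the scrambled libraries are descriptions, since RGS6 was chosen on them.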

How the results depend on the processing

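Of the fold changes of members recomputed under the alternatives, 1065 kept their direction and side of the threshold, 74 lost a call, 32 gained one, 18 described values moved by more than the replicate spread and 13 changed sign. The cause of each change was not tested. With library totals alone, 4 members were called in Jurkat shRNA against scrambled cells (2 with TMM), 0 against wild-type cells (1 with TMM, and 4 at an unadjusted p under 0.05), 1 between the Jurkat controls (2) and 4 for Jurkat shRNA-4058 against wild-type cells (2). Under it RGS19 turned to 0.0616 in Jurkat shRNA against scrambled cells, RGS10 to -0.0347 between the Jurkat controls and RGS2 to -0.062 in the difference between lines. It moved the share of higher genes among those called from 44.1% to 81.2%, 36.9% to 64.6%, 53.2% to 32.5%, 52.9% to 34.1% and 60.4% to 26.5% in Jurkat against scrambled, Jurkat against wild-type, HSB-2 against scrambled, HSB-2 against wild-type and the difference between lines, and 34 of 64 group levels moved by more than the replicate SD. DESeq2 called 5 members in Jurkat against scrambled cells, 4 in HSB-2 against wild-type cells (2) and 3058 genes in Jurkat against wild-type cells (1798). With every gene of at least 1 count, 5 members were called in HSB-2 against wild-type cells, and with at least 10 counts in every library 4 for Jurkat shRNA-4058 and 1 for HSB-2 shRNA-4057 against wild-type cells (3).

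With hairpins as separate groups, 6 members and 11837 genes (5965) were called in Jurkat against scrambled cells, 5 and 8570 against wild-type cells, where RGS2 turned to -0.0429, 7 and 9490 (5010) in HSB-2 against wild-type cells, and 12077 genes (8049) in HSB-2 against scrambled cells. With scrambled and wild-type cells joined, Jurkat shRNA cells had 4 members called, and the described value of RGS10 in HSB-2 turned to 0.0163. Replicate numbers did not pair the samples (deviations of same-numbered libraries correlated at -0.169 to 0.158). With the replicate block, 0 members (3 at an unadjusted p under 0.05) and 451 genes were called in Jurkat against wild-type cells, against scrambled cells RGS14 was not called (edgeR adjusted p = 0.0737) and RGS6 was (0.0486), and no other count of members or of all genes moved by over 1.5 times. Of the lists against wild-type cells, the block moved HSB-2 receptors from 11 to 7, effectors from 8 to 5 (4 higher and 1 lower), alpha subunits from 3 to 0 (4 at an unadjusted p under 0.05), partners from 2 to 1 and other RGS domain genes from 1 to 0 (1), and Jurkat receptors from 4 to 2, other RGS domain genes from 2 to 0 (3) and effectors from 1 to 0 (3), by edgeR.

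Leaving out 1 library gave 0 to 3 members and 1434 to 5792 genes in Jurkat against scrambled cells, 0 to 1 members and 0 to 1452 genes against wild-type cells, 3801 to 8454 genes in HSB-2 against scrambled cells, where calls of members are not counted, 0 to 4 members and 1119 to 5494 genes against wild-type cells, and 2020 to 4658 genes for the difference between lines. The 0 genes by edgeR came without one or the other Jurkat wild-type library, with 3350 and 3206 at an unadjusted p under 0.05. Members called ran from 0 to 2 between the Jurkat controls, 1 to 2 for Jurkat shRNA-4058 against wild-type and 3 to 6 against scrambled cells, and 3 to 5 between the HSB-2 hairpins (3713 to 4478 genes). RGS16 ran from -0.9999 to 0.32 in Jurkat against scrambled and -0.45 to 0.13 against wild-type cells, RGS2 from -0.21 to 0.26 against wild-type cells, and in the difference between lines RGS2 ran from -0.11 to 0.36 and RGS14 from -0.17 to 0.0213. Where 1 control library was left, it was assumed to vary like the others. RGS1 and RGS16 in HSB-2 against wild-type cells lost their calls only without one or the other wild-type library (edgeR adjusted p 0.0636 to 0.104).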
